A study of Saccharomyces cerevisiae with 16 samples.

Results

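A group of 32 nuclear genes for the charging of tRNAs in budding yeast was followed, picked by gene ID from a list of names. It is not the full set, and other mitochondrial aminoacylation genes were read as a separate list. The group holds 22 genes of the cytosolic set, which are 21 aminoacyl-tRNA synthetase genes and ARC1, a cofactor of the methionyl and glutamyl enzymes, and 10 genes of the mitochondrial set. All 32 were among the 5647 genes counted, and all passed the filter on low mRNA reads in both strain backgrounds.

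An aminoacyl-tRNA synthetase joins an amino acid to its matching tRNA, so these enzymes supply every ribosome with its substrate. Mitochondria translate their own small genome and need charged tRNAs of their own. In yeast a number of amino acids are served by one cytosolic and one mitochondrial enzyme, both encoded in the nucleus and both translated by cytosolic ribosomes, while other genes, among them ALA1, VAS1, HTS1, GRS1 and CRS1, give a product to both compartments.

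Ribosome footprints, which are stretches of mRNA shielded by a ribosome during nuclease digestion, and total mRNA were sequenced from 2 cultures of each of 4 strains, giving 16 libraries. The eIF3a/b Degron mutant YAJ34 makes the eIF3a (TIF32) and eIF3b (PRT1) subunits as degron-tagged proteins, tif32td and prt1td, from the CUP1 promoter, and carries UBR1 under the GAL1 promoter. Its WT, YAJ3, lacks the degron alleles and carries pRS316 [URA3], and both strains share gcn2::hisG, ura3-52, trp1∆, MATa, a leu2 mutation and the GAL1-driven myc-UBR1, so neither has the Gcn2 kinase. The eIF3i DDKK mutant and its WT are H450 cells (tif34∆, trp1∆, ura3-52::GCN2, leu2-3,-112, MATa) that hold TIF34 on a plasmid, as TIF34-D207K-D224K-HA in the mutant and as TIF34-HA in WT. The labels of both H450 strains also list hc TIF34 URA3. Degron cells and their WT went from 25°C in raffinose medium with copper to raffinose and galactose with the copper chelator BCS at 36°C for 90 min, and DDKK cells and their WT went from 30°C to 37°C for 30 min in synthetic complete medium. Medium, temperature, time and strain therefore cannot be told apart between the backgrounds, and each mutant was compared with its own WT.

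Footprint libraries held 5136423 to 29982592 counted reads and mRNA libraries 4389212 to 12164617. In both backgrounds and both assays the WT libraries were the deeper ones. TIF32 had 708 and 697 footprint reads in the Degron mutant cultures against 6033 and 5503 in WT, and its TE changed by −2.05 on the log2 scale, while the DDKK base changes cannot be seen in counts per gene. One gene, YDR445C, took 8.79% to 29.9% of the mRNA reads of a library, so a scaling without it was among the alternatives. No absolute standard was added, so every change is relative to the other genes of the library. The labels call the cultures biological replicates.

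The bases around the start codon of the genes on which the results turn are shown so that the mRNAs can be identified, with the ATG in capitals, 15 bases before it and 12 after it (R64 genome, RefSeq). For leucine the pair is CDC60, the cytosolic enzyme, and NAM2, the mitochondrial one, which is also needed for splicing of mitochondrial group I introns. For tryptophan it is WRS1 and MSW1, and for methionine MES1 and MSM1. MSD1 and MSK1 charge mitochondrial tRNAs with aspartate and lysine. YHR020W encodes the cytosolic prolyl and DED81 the asparaginyl enzyme.
NAM2 (YLR382C, XII:884737-884766, minus strand): gtgtacggtggaaaaATGctgtctcgacct
CDC60 (YPL160W, XVI:246975-247004, plus strand): tttaaccagtctataATGtcttctggtttg
MSW1 (YDR268W, IV:1003989-1004018, plus strand): tcttttacaaggaagATGtcgaataagcag
WRS1 (YOL097C, XV:137811-137840, minus strand): agtcgtagaacaacgATGagcaacgacgaa
MSM1 (YGR171C, VII:842537-842566, minus strand): tgatcgaaagaaaacATGcaatgtcgatca
MES1 (YGR264C, VII:1021839-1021868, minus strand): aaatttacaacaagcATGtctttcctcatt
MSD1 (YPL104W, XVI:355685-355714, plus strand): ttacaagttttaatcATGttggcccgttcc
MSK1 (YNL073W, XIV:488371-488400, plus strand): gttacatgattgccgATGaatgtgctgtta
YHR020W (VIII:143981-144010, plus strand): agaacaaatcaaaatATGcctgtttcggaa
DED81 (YHR019C, VIII:143544-143573, minus strand): tcatttttttcaaacATGtcatctttgtac

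Yeast start codons are often preceded by A at position −3, counted from the A of the ATG. Position −3 was A in 16 of 22 cytosolic genes (72.7%) and 7 of 10 mitochondrial genes (70%), against 60.9% of 5446 genes of the tables with an ATG start. The letter was A in NAM2, MSD1 and MSW1, whose TE fell in the Degron mutant, and also in MSM1 and WRS1, whose TE did not. MSK1 had C there. None of the 32 genes has an intron, overlaps another annotated gene or shares a run of 28 bases with another place in the genome.

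Among the genes that serve both compartments, ALA1 and GRS1 start their mitochondrial form upstream, at a codon other than ATG, and these windows are printed with that codon in capitals. In ALA1 it is ACG, 25 and 24 codons upstream, and in GRS1 it is TTG, 23 codons upstream. Reads there lie outside the counted region, so the counts do not separate the forms.
ALA1 (YOR335C, XV:949170-949199, minus strand): cttatttaagacaagACGacgtcaactacc
GRS1 (YBR121C, II:483422-483451, minus strand): gattttcaagaaaaaTTGtcgttcttcaat

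In WT cells the cytosolic genes had the higher median mRNA level and the higher median footprint density. Reads scaled to the counted length and to the library total (RPKM) were used to compare levels between genes. In the Degron WT, mRNA RPKM had a median of 207 over the 22 cytosolic genes (102.9 to 354.9) and of 46.4 over the 10 mitochondrial genes (36.2 to 79.3), against 58.4 over all genes tested. These ranges did not overlap. The ratio of footprint to mRNA RPKM had a median of 0.801 in the cytosolic and 0.521 in the mitochondrial group, with ranges that did overlap. In the DDKK WT the medians of mRNA RPKM were 181 and 29.3 and those of the ratio 1.07 and 0.547.

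ILS1, the cytosolic isoleucyl enzyme, had the most mRNA reads of the group and MSF1, the mitochondrial phenylalanyl enzyme, the fewest. ILS1 had 6029 and 5594 mRNA reads in the Degron mutant against 7266 and 9089, with 3073 and 2908 footprint reads against 7591 and 7072. MSF1 had 160 and 160 mRNA reads against 426 and 571, and 85 and 109 footprint reads against 1048 and 896. All 4 mutant footprint counts lay below those of WT, in shallower libraries. In the DDKK background ILS1 had 4057 and 2684 mRNA reads against 9181 and 5617, and 2644 and 1681 footprint reads against 14097 and 11673. MSF1 had 158 and 139 mRNA reads against 342 and 263, and 135 and 154 footprint reads against 964 and 1062. In the Degron background ∆TErel, the log2 change of footprints over mRNA between mutant and WT, was −0.18 for ILS1 (SE 0.09, adjusted p = 0.0821; 0.13 with library size alone) and −1.06 for MSF1 (SE 0.18, adjusted p = 1.94e-05, edgeR).

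In cells depleted of eIF3a and eIF3b the TE of most of the mitochondrial set was lower than in WT. In eIF3a/b Degron cells TE fell for 9 of the 10 mitochondrial genes and rose for none, with edgeR adjusted p under 0.05, where 33.1% of the 5306 genes tested fell and 26.8% rose. The median ∆TErel of the 10 genes was −1.08, against −0.04 over all genes tested. The mutant cultures were both below both WT cultures in 9 of the 10 genes, as in 42.7% of all genes. The 9 falls ran from −2.45 (NAM2) through −1.42 (MSD1), −1.38 (MSK1), −1.14 (MSW1), −1.10 (MSE1), −1.06 (MSF1), −0.96 (MSY1) and −0.93 (ISM1) to −0.91 (MST1). Of these, MSE1, MSY1, ISM1 and MST1 charge glutamate, tyrosine, isoleucine and threonine. MST1 was not past the threshold without mutant culture 1, at −0.51 (adjusted p = 0.0681).

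NAM2 fell furthest. It had 22 and 38 footprint reads in the mutant cultures against 873 and 1010 in WT, beside 331 and 311 mRNA reads against 1048 and 1366. The mutant libraries were the shallower ones in both assays. After scaling (TMM), footprints and mRNA of both mutant cultures still lay below those of both WT cultures. The footprint to mRNA ratio was 0.0654 and 0.12 in the mutant against 0.361 and 0.448 in WT. The ∆TErel of NAM2 was −2.45 (SE 0.24, adjusted p = 1.36e-08, edgeR). This is a relative TE of 0.183 times that of WT, and it ranked 43rd from the lowest of the 5306 genes.

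MSD1 had 130 and 105 footprint reads in the mutant against 1557 and 1571, with 354 and 310 mRNA reads against 934 and 1226. Its ratio was 0.361 and 0.332 against 0.723 and 0.776, and ∆TErel was −1.42 (SE 0.15, adjusted p = 3.23e-08). MSK1 had 71 and 79 footprint reads in the mutant against 1043 and 928, with 394 and 416 mRNA reads against 1148 and 1513. Mutant and WT ratios did not overlap for either gene, and non-overlap after TMM scaling was a condition for printing these values. For MSK1 they were 0.177 and 0.186 against 0.394 and 0.371, and ∆TErel was −1.38 (SE 0.15, adjusted p = 6.3e-08).

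MSM1, the mitochondrial methionyl enzyme, was the 1 gene of the mitochondrial group whose TE did not change past the threshold, and its values are given because of that. It had 138 and 95 footprint reads in the mutant against 416 and 402, with 346 and 347 mRNA reads against 611 and 766. Its mutant ratios of 0.393 and 0.268 lay on either side of the WT ratios of 0.295 and 0.318. Its ∆TErel was −0.20 with a 95% interval of −0.53 to 0.13 (adjusted p = 0.307), and without mutant culture 1 it was −0.50 (adjusted p = 0.0361).

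**Figure D1:**
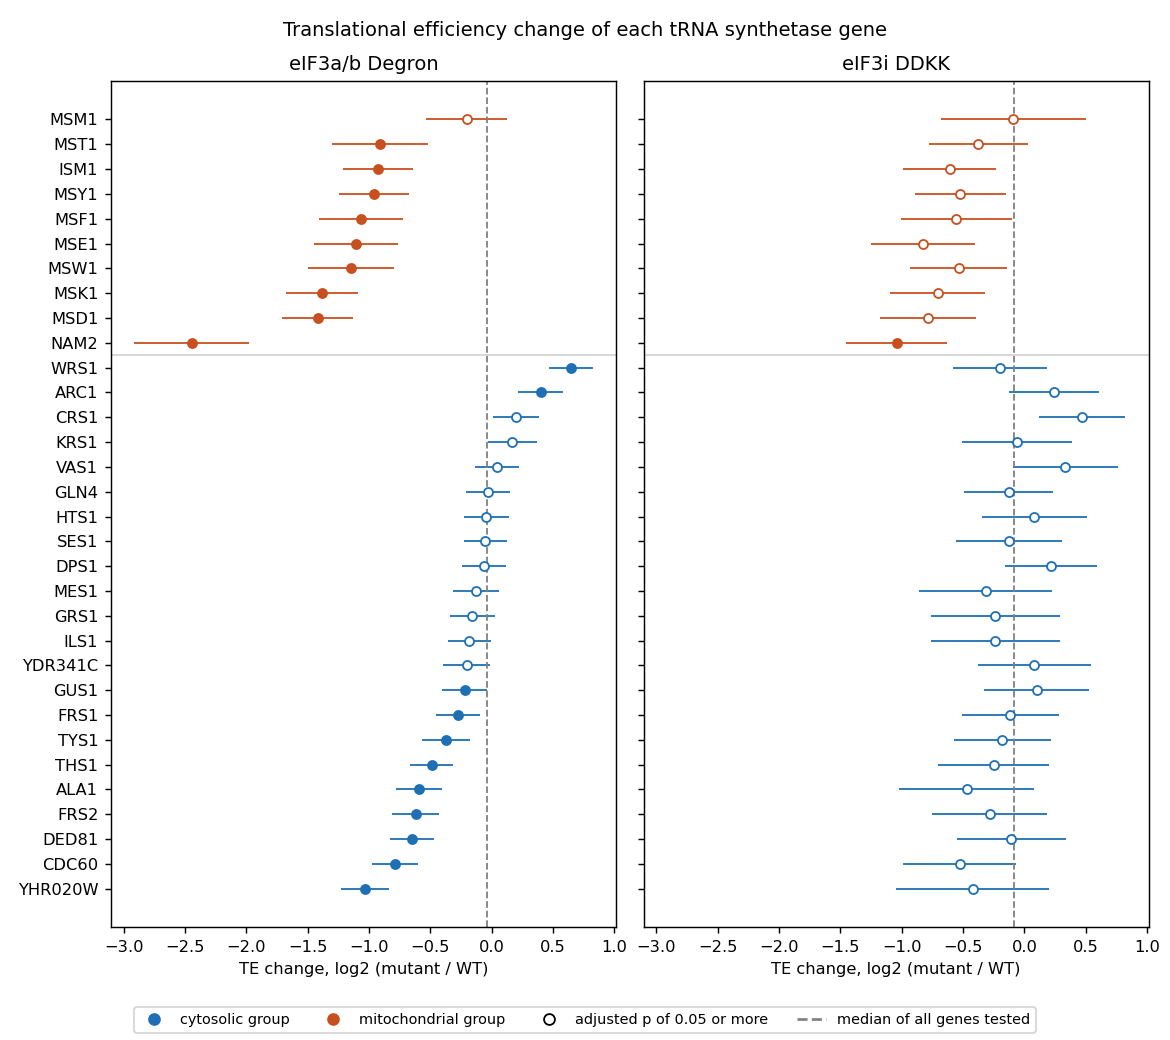
TE change of each of the 32 genes, with Degron cells on the left and DDKK cells on the right, as the log2 change against WT with 95% intervals. Filled points had an edgeR adjusted p under 0.05 and the dashed line is the median of all genes tested. In Degron cells 9 of 10 mitochondrial genes are filled and lie between −2.45 and −0.91, and in DDKK cells only NAM2 is filled.

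The cytosolic set moved less and in both directions. TE fell in Degron cells for 9 of 22 cytosolic genes and rose for 2, where 33.1% of all genes fell and 26.8% rose. The other 11 were not past the threshold. The median ∆TErel was −0.17, against −0.04 over all genes tested. The 9 were YHR020W (−1.04), CDC60 (−0.79), DED81 (−0.65), the phenylalanyl subunit FRS2 (−0.62), ALA1 (−0.59), the threonyl enzyme THS1 (−0.49), the tyrosyl enzyme TYS1 (−0.37), the phenylalanyl subunit FRS1 (−0.27) and the glutamyl enzyme GUS1 (−0.22). WRS1 rose by 0.65 and ARC1 by 0.40. GUS1 was not past the threshold without any 1 culture of the background (highest adjusted p = 0.202), and FRS1 was not past it without mutant culture 2 (−0.19, adjusted p = 0.15) or WT culture 2 (−0.21, adjusted p = 0.159).

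How many cytosolic genes fell depends on the scaling. With library size alone the median ∆TErel of all genes moved from −0.04 to 0.28 and the split in all genes from 1755 lower and 1420 higher to 975 and 2479. The cytosolic split moved from 9 lower and 2 higher to 5 and 9, and it was 6 and 9 without YDR445C, 7 and 4 with TMM within each assay, 3 and 3 with all 16 libraries in one fit, and 7 and 2 with DESeq2. The mitochondrial split stayed at 9 lower and 0 higher under each of these scalings. After subtracting the all-gene median, the cytosolic median was −0.13 and the mitochondrial one −1.05.

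YHR020W had 1764 and 1480 footprint reads in the mutant against 6254 and 5893, with 3009 and 2734 mRNA reads against 2988 and 3861. Its ratio was 0.577 and 0.53 in the mutant against 0.907 and 0.924 in WT, and ∆TErel was −1.04 (SE 0.10, adjusted p = 1.06e-08). CDC60 had 1786 and 1686 footprint reads against 4682 and 4589, and 5166 and 4622 mRNA reads against 4360 and 5500. For CDC60 the mutant ratios were 0.34 and 0.357 against 0.466 and 0.505 in WT, with ∆TErel at −0.79 (SE 0.10, adjusted p = 3.09e-07, edgeR). DED81 had 2537 and 2563 footprint reads against 9436 and 8349, and 2477 and 2273 mRNA reads against 2998 and 3883. Its ratios of 1.01 and 1.10 lay below the WT ratios of 1.36 and 1.30, and ∆TErel was −0.65 (SE 0.09, adjusted p = 2.8e-06).

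**Figure D2:**
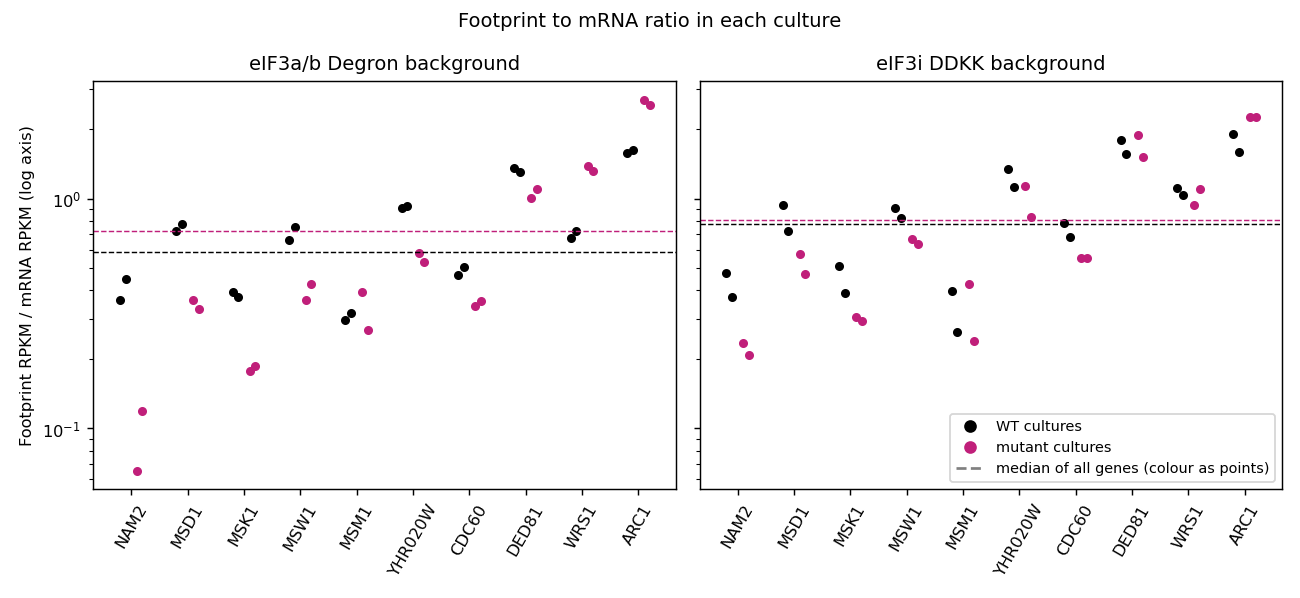
Footprint RPKM divided by mRNA RPKM in each culture (log axis), for 10 of the genes in the Degron (left) and DDKK (right) backgrounds, with the medians of all genes as dashed lines. Each point is 1 culture. In the Degron background the NAM2 ratios are 0.0654 and 0.12 in the mutant against 0.361 and 0.448, while those of WRS1 are 1.39 and 1.32 against 0.674 and 0.721.

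Transcript levels of the groups also lay apart. In Degron cells the mRNA of 10 of 10 mitochondrial genes fell relative to WT and that of none rose, where 30.8% of all genes fell and 44.3% rose. The mRNA of 14 of 22 cytosolic genes rose and that of none fell. GUS1, at −0.14, did fall past the threshold in part of the alternative fits, over which it ran from −0.27 to −0.08. FRS2 and DPS1 were also past it as falls in part of them. Median mRNA changes were −0.89 in the mitochondrial group, 0.27 in the cytosolic group and 0.12 over all genes. MST1 (−1.20) and NAM2 (−1.15) had the largest falls, and MSM1 the smallest (−0.23, adjusted p = 0.0497), which was lost without mutant culture 1 (−0.19), WT culture 1 (−0.25) or WT culture 2 (−0.20). The largest rises were those of MES1 (0.86), the glutaminyl enzyme GLN4 (0.82), CDC60 (0.75), WRS1 (0.72) and the lysyl enzyme KRS1 (0.64).

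Footprints, in which mRNA and TE add up, fell for 10 of 10 mitochondrial genes, with a median of −1.97, where 41.3% of all genes fell and 41.8% rose. Relative to the other genes and after TMM scaling, NAM2 footprints were at 0.0829 of their WT level. MSM1 was again the least changed (−0.43), and it was not past the threshold without mutant culture 2 (adjusted p = 0.21) or WT culture 2 (adjusted p = 0.0519). Footprints of 6 cytosolic genes fell and those of 10 rose, with a median of 0.06 and WRS1 at the top (1.37). As a share of all footprint reads, the 10 mitochondrial genes made up 0.0417% and 0.0462% in WT against 0.0131% and 0.0141% in the mutant. Wilson 95% intervals ran from 0.0408% to 0.0472% over the WT libraries and from 0.0122% to 0.0151% over the mutant libraries. The 22 cytosolic genes went from 0.816% and 0.853% to 1.05% and 1.01%.

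Calls in mRNA and in TE were then read together. The TE change is the footprint change less the mRNA change from the same mRNA libraries, so these calls are not independent. In 9 of the 10 mitochondrial genes both mRNA and TE fell, as in 13.9% of all genes. In 6 cytosolic genes, ALA1, CDC60, DED81, FRS1, TYS1 and YHR020W, mRNA rose while TE fell (11.4% of all genes), and in WRS1 both rose (16% of all genes). The mRNA rise of DED81 (0.23) was not past the threshold without WT culture 1 (adjusted p = 0.0662). The TE fall of TYS1 was lost with library size alone (−0.06, adjusted p = 0.61), and with all 16 libraries in one fit TYS1 (adjusted p = 0.334), ALA1 (adjusted p = 0.13) and FRS1 (adjusted p = 0.621) lost the TE call and 4 of the 6 (ALA1, DED81, TYS1 and YHR020W) the mRNA call (adjusted p from 0.0734 to 0.476). Among the 6 genes whose mRNA rose while TE fell, CDC60 had the largest mRNA change, at 0.75. Its footprint change was −0.04 (adjusted p = 0.622), and 0.20 with library size alone (adjusted p = 0.00972, edgeR).

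**Figure D3:**
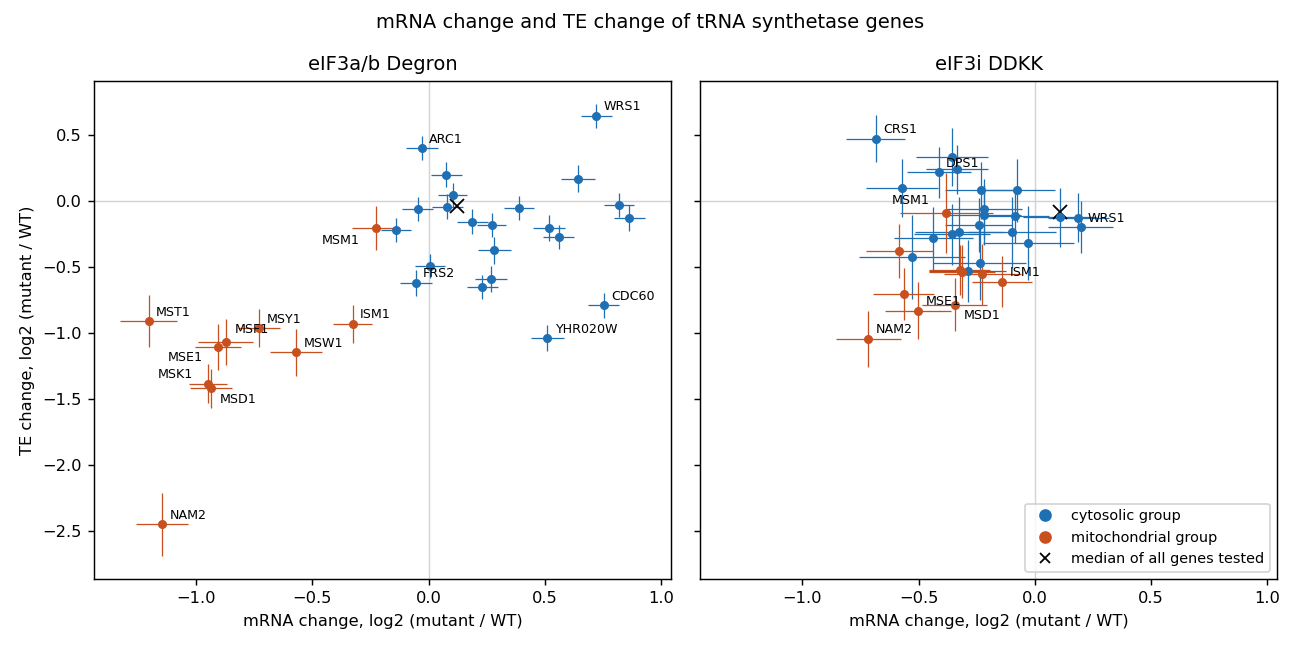
mRNA change (x axis) against TE change (y axis) of the 32 genes as log2 values with standard errors, in Degron (left) and DDKK cells (right). The cross marks the medians of all genes. In Degron cells the mitochondrial genes lie at negative values on both axes, NAM2 at −1.15 and −2.45, while CDC60 and YHR020W lie at positive mRNA and negative TE changes.

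Pairs of enzymes for the same amino acid allow the groups to be set side by side. In Degron cells the mitochondrial gene had the lower ∆TErel in 10 of 10 pairs, with a median difference of −0.81 (−1.79 to −0.08). The difference between the members of a pair was not tested. Tryptophan gave the widest gap and was the 1 pair with opposite calls. WRS1 had 2174 and 2015 footprint reads in the mutant against 2163 and 2070, where the mutant libraries were the shallower, with 1543 and 1496 mRNA reads against 1392 and 1739. Its mutant ratios of 1.39 and 1.32 exceeded the WT ratios of 0.674 and 0.721, and ∆TErel was 0.65 (SE 0.09, adjusted p = 3.02e-06). MSW1 had 73 and 92 footprint reads against 713 and 698, and 198 and 211 mRNA reads against 468 and 562. Its ratios went the other way, 0.363 and 0.427 against 0.66 and 0.752, and ∆TErel was −1.14 (SE 0.18, adjusted p = 1.01e-05).

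Lysine (KRS1 0.17, MSK1 −1.38), leucine (CDC60 −0.79, NAM2 −2.45) and aspartate (DPS1 −0.06, MSD1 −1.42) followed with differences of −1.55, −1.66 and −1.35. The closest pair was that for methionine, MES1 at −0.13 and MSM1 at −0.20. In that pair the mRNA changes were far apart, at 0.86 for MES1 and −0.23 for MSM1.

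**Figure D4:**
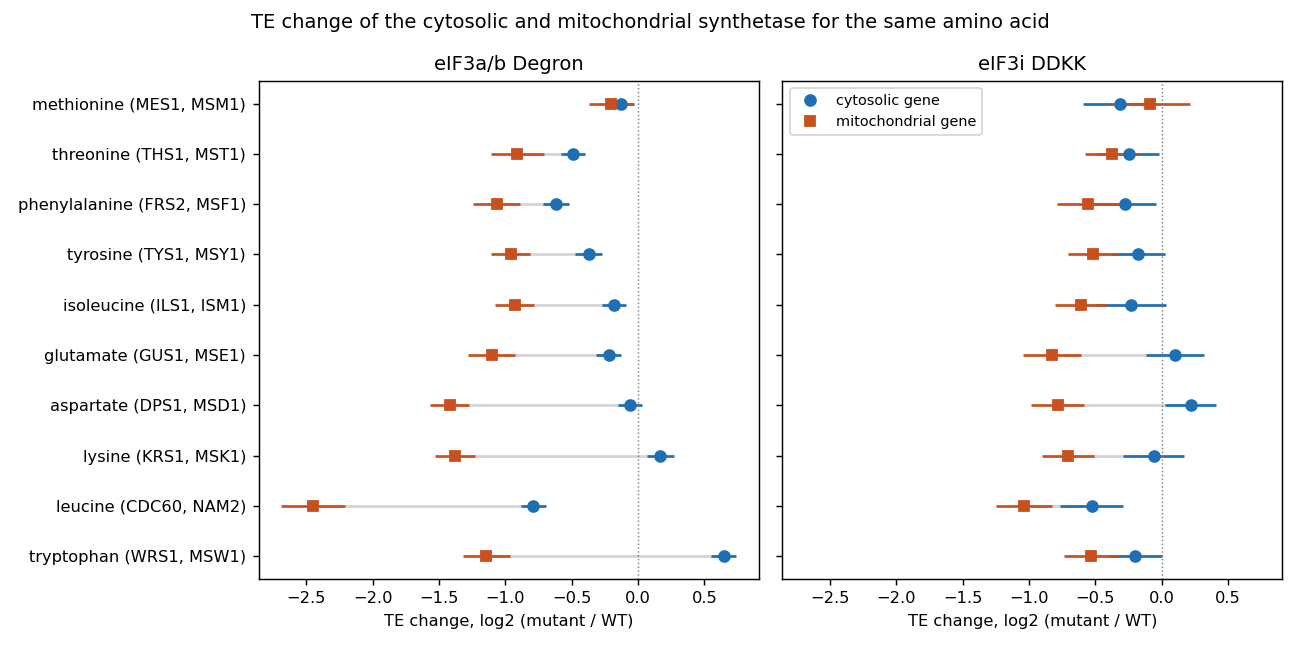
TE change of the cytosolic (circles) and mitochondrial (squares) gene for each of 10 amino acids, as log2 values with standard errors, in Degron (left) and DDKK cells (right). In Degron cells each square lies to the left of its circle, by 1.79 for tryptophan and 0.08 for methionine. In DDKK cells this holds for 9 of 10 pairs.

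In eIF3i DDKK cells, whose mutation detaches eIF3i and eIF3g from the rest of eIF3, the same groups were measured with less precision. The biological coefficient of variation was 0.121 against 0.0483 in the Degron background. The median standard error of ∆TErel was 0.22 against 0.09 in the cytosolic group, but 0.20 against 0.17 in the mitochondrial group. TE fell past the threshold for 1 of 10 mitochondrial genes, NAM2, where 2.88% of the 5244 genes tested fell and 1.14% rose. DESeq2 also called 1. Without single cultures the mitochondrial median ran from −0.65 to −0.52, and the number called varied, as it did over all genes. At an unadjusted p under 0.05, 8 mitochondrial genes were lower, as were 14.4% of all genes. The 10 values were all below 0, with a median of −0.58 against −0.08 over all genes, and in 9 of them both mutant cultures lay below both WT cultures (38.1% of all genes). Next to NAM2 came MSE1 (−0.83, adjusted p = 0.0641), MSD1 (−0.78, adjusted p = 0.0599) and MSK1 (−0.71, adjusted p = 0.0776).

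NAM2 had 80 and 53 footprint reads in the DDKK mutant against 994 and 833, with 278 and 218 mRNA reads against 846 and 579. Its ratios were 0.235 and 0.208 in the mutant against 0.477 and 0.373 in WT. The ∆TErel was −1.04 (SE 0.21, adjusted p = 0.0298). It was −0.99 without WT culture 1 and −1.09 without WT culture 2. The call was lost in both of these fits, as were nearly all calls over all genes. With library size alone the call was lost too (adjusted p = 0.124, edgeR, and 0.0543 with YDR445C left out).

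No cytosolic gene changed in TE past the threshold in DDKK cells by edgeR or DESeq2. At an unadjusted p under 0.05, where 14.4% of all genes were lower and 6.43% higher, edgeR had 1 of each, CDC60 at −0.53 (95% interval −0.99 to −0.07) and the cysteinyl enzyme CRS1 at 0.47 (95% interval 0.12 to 0.82). The cytosolic median was −0.13. WRS1, with 1026 and 863 footprint reads against 4210 and 3494 and 891 and 669 mRNA reads against 1543 and 869, had RPKM ratios of 0.941 and 1.10 in the mutant against 1.11 and 1.04. These overlapped, though after TMM scaling both mutant cultures lay below both of WT, and its ∆TErel was −0.20 (95% interval −0.59 to 0.19, adjusted p = 0.626). MSW1 had 113 and 98 footprint reads against 776 and 769, and 138 and 132 mRNA reads against 347 and 243. Its ratios of 0.669 and 0.634 lay below those of WT, 0.907 and 0.819, with ∆TErel at −0.53 (95% interval −0.93 to −0.14, adjusted p = 0.167).

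The mRNA of 4 mitochondrial genes (NAM2 −0.72, MST1 −0.58, MSK1 −0.56, MSE1 −0.50) and of 3 cytosolic genes (CRS1 −0.68, GUS1 −0.57, DPS1 −0.41) fell in DDKK cells, and that of none rose, where 12% of all genes fell and 16.5% rose. Medians were −0.36 and −0.24. Without WT culture 1 or WT culture 2 these 7 calls were lost, and calls over all genes were far fewer as well. Without single cultures the median mRNA change ran from −0.50 to −0.32 (mitochondrial) and from −0.31 to −0.21 (cytosolic). Footprints fell for 9 of 10 mitochondrial genes, all but MSM1, and for 8 of 22 cytosolic genes, where 26.2% of all genes fell and 26.2% rose. Their medians were −0.90 and −0.30. Without single cultures the cytosolic footprint median ran from −0.50 to −0.12. The number called varied, as it did over all genes, and all the cytosolic calls were lost without WT culture 1. Across the amino acid pairs the mitochondrial gene had the lower ∆TErel in 9 of 10, with a median difference of −0.36, and methionine was the exception (0.23).

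Whether a gene responded differently in the mutants was tested in one model of all 16 libraries, as the difference between the Degron and the DDKK ∆TErel. It was past the threshold for WRS1 (0.88, SE 0.21, adjusted p = 0.0355) and NAM2 (−1.38, SE 0.36, adjusted p = 0.0482) and for no other member, where 1.78% of 5228 genes had a lower and 1.89% a higher value in Degron cells. All 10 mitochondrial values lay below 0, with a median of −0.49 against 0.05 over all genes. Without single cultures the WRS1 difference ran from 0.82 to 0.95 and the NAM2 difference from −1.84 to −0.97. Each gene lost the call in most of these fits, and in most of those few of all genes were called. NAM2 also lost it without DDKK mutant culture 1, where more of all genes were called than with all cultures.

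Other genes of mitochondrial protein synthesis were read as lists. In Degron cells TE fell for 5 of 6 mitochondrial translation factor genes and rose for none, with a median of −0.95, beside 33.1% lower and 26.8% higher over all genes tested. IFM1, the mitochondrial initiation factor, changed by −1.79 (SE 0.18, adjusted p = 1.65e-08), the elongation factor genes MEF1 by −1.45 and TUF1 by −1.15. Of 66 mitochondrial ribosomal protein genes 52 fell and 2 rose, with a median of −0.63, and the mRNA of 65 fell (30.8% of all genes), with a median of −0.77. The other mitochondrial aminoacylation genes stood nearer to all genes in TE. Of 7 tested, the arginyl enzyme MSR1 (−0.64) and the prolyl enzyme AIM10 (−0.74) fell, HER2, a subunit of the glutamyl-tRNA amidotransferase, rose (0.37), and the median was −0.22. The other 4, SLM5 and DIA4 among them, were not past the threshold. The mRNA of 5 of the 7 fell and that of 1 rose (30.8% and 44.3% of all genes), with a median of −0.53. Their footprints fell for 5 and rose for 2 (41.3% and 41.8% of all genes), with a median of −0.75. Of 4 mitochondrial tRNA maturation genes, MTO1 (−1.34) and SLM3 (−1.33), which modify the wobble base, fell. Of 10 genes for maturation of nuclear and cytosolic tRNAs 3 fell and 4 rose, shares near those of all genes, with a median of 0.14. In DDKK cells, where 2.88% of all genes fell, MEF1 (−0.97, adjusted p = 0.0146) and MTO1 (−1.32, adjusted p = 0.018) fell in TE among the genes of these lists other than ribosomal protein genes.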

How the data were processed

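Footprints and total mRNA of 2 cultures of each of 4 strains gave 16 libraries. Cycloheximide was added before harvest. The authors deposited raw read counts per gene, leaving out 15 codons at the start and 5 at the end of each coding sequence, with the length of the counted region. The submitters' processing notes name CASAVA 1.8, Bowtie2 2.2.6.0, TopHat2 2.1.0, DESeq2 and sacCer3. The deposited table of log2 TE, log2 TE changes and p-values holds the authors' own comparisons and was not used. The gene table of R64 (RefSeq) matched 5450 of 5647 genes.

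Genes with at least 128 mRNA reads over the 4 mRNA libraries of a background were kept. Counts were fitted with edgeR 4.0.16 (quasi-likelihood F test, TMM, 4 groups) in R 4.3.3, over the 8 libraries of a background. TE was the interaction of assay and genotype, the standard error was the size of the log2 change over the square root of F, and adjusted p-values are Benjamini-Hochberg over all genes tested, with 0.05 as the threshold. The difference between mutants was fitted over 16 libraries. RPKM ratios use library totals, whereas ∆TErel uses TMM. DESeq2 1.42.0 and limma 3.58.1 were alternatives, beside other scalings, filters, thresholds, blocks and fits without single cultures. Wilson intervals (95%) cover counting error only.

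The members and gene lists were chosen with earlier results of these data known, and the list of mitochondrial ribosomal protein genes was added after the data were seen. Any member may be named. Values in every library are given for the 3 called members with the largest TE change per group and background whose cultures do not overlap, for a pair called in opposite directions, and for the members with the most and fewest mRNA reads. Other tools were Python 3.11.15, numpy 2.4.6, pandas 2.3.3, scipy 1.17.1, Biopython 1.88 and matplotlib 3.10.9. With 2 cultures per strain no test of a single gene by permutation can reach the threshold.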

Additional observations from a re-analysis of the deposited data

Results flagged for a closer look

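The TE change of WRS1, the cytosolic tryptophanyl enzyme, differed between the mutants by 0.88 on the log2 scale (Degron minus DDKK, SE 0.21, adjusted p = 0.0355, edgeR over all 16 libraries). It was 0.65 in Degron and −0.20 in DDKK cells.

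The TE change of NAM2, the mitochondrial leucyl enzyme, differed by −1.38 (SE 0.36, adjusted p = 0.0482), and it was −2.45 in Degron and −1.04 in DDKK cells. The mutants were grown in different media, temperatures and times, and the part of these in either difference was not tested.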

How the results depend on the processing

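In Degron cells the same 9 mitochondrial genes were called in TE, all as lower, under every scaling, filter, block and threshold tried. The genes called changed without mutant culture 1, where MST1 was at −0.51 and MSM1 at −0.50. The cytosolic count of TE calls was 6 with all 16 libraries in one fit, where the median was 0.0026, and the cytosolic count of mRNA calls was then 7. With library size alone the cytosolic median was 0.143 (0.0993 without YDR445C) and the TE changes turned positive for SES1 (0.26, 0.22 without YDR445C), GUS1 (0.0924, 0.0486), DPS1 (0.25, 0.21), GLN4 (0.28, 0.24), HTS1 (0.27, 0.23) and FRS1 (0.0395), as did the CDC60 footprints (0.20, 0.20). With no call in either fit, ILS1 (0.13, 0.09), GRS1 (0.16, 0.11), YDR341C (0.11, 0.06), MES1 (0.19, 0.14) and MSM1 (0.11, 0.06) turned positive too. Among single gene results 2722 kept their direction and side of the threshold, 151 lost the call and 99 gained one. A further 13 changed sign with a call in at least 1 of the fits and 151 with none.

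In DDKK cells the cytosolic TE count was 1 with all 16 libraries and the mitochondrial one 4. Of all 5228 genes in that fit, 337 were lower and 386 higher. Library size alone gave 0 mitochondrial TE calls with or without YDR445C, as did an adjusted p under 0.01 (0). Of all 5244 genes, library size alone had 49 lower and 65 higher, and 56 and 56 without YDR445C. The cytosolic TE median was 0.0157 with all 16 libraries, 0.0066 with library size alone, 0.011 without YDR445C in it and 0.038 without mutant culture 2. Cytosolic mRNA counts were 5 (DESeq2), 1 (adjusted p under 0.01), 12 (all 16 libraries) and 1 (library size alone), and mitochondrial ones 1 (adjusted p under 0.01), 8 (all 16 libraries), 1 (library size alone) and 2 (without YDR445C). Over all genes, lower and higher mRNA calls were 688 and 732 (DESeq2) and 1115 and 1054 (all 16 libraries). Library size alone gave 303 and 1235, and 418 and 1553 without YDR445C. Cytosolic footprint counts were 3 (adjusted p under 0.01), 2 (library size alone) and 4 (without YDR445C). Over all genes library size alone gave 646 lower and 1975 higher footprint calls, and 790 and 2196 without YDR445C. The difference between mutants had 0 calls at an adjusted p under 0.01, and 1 each with at least 10 counts in every library, library size alone, library size without YDR445C and limma voom. The causes were not tested.

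Without single cultures, Degron counts were 9 to 10 (cytosolic TE), 9 to 9 (mitochondrial TE), 12 to 14 and 9 to 10 (mRNA), and 15 to 16 and 9 to 10 (footprints), cytosolic first. DDKK counts varied more, along with those over all genes. DDKK medians, cytosolic first, ran from −0.2645 to 0.038 and from −0.654 to −0.5184 (TE). They ran from −0.3062 to −0.2125 and from −0.4956 to −0.3193 in mRNA. In footprints they ran from −0.5 to −0.1224 and from −0.9922 to −0.9006. Calls for the difference between mutants varied with the culture left out, as did those over all genes.

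The replicate numbers are 2 per strain and do not establish pairing. Deviations of same-numbered cultures had a correlation of 0.0179 in Degron TE and 0.0505 in DDKK TE, and of 0.0124 and 0.00287 in Degron and 0.214 and 0.357 in DDKK mRNA and footprints. With the replicate number as a block, DDKK counts were 1 and 4 in TE and 9 in cytosolic mRNA. Of all 5244 genes, 434 were then lower and 154 higher in TE, and 841 lower and 1250 higher in mRNA. With each culture as a block, DDKK TE counts were 3 and 5, where 668 of all 5244 genes were lower and 234 higher.

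Footprint counts of the mitochondrial genes went down to 22 reads in a library (NAM2), and the median standard error of TE over all genes tested was 0.131 in the Degron and 0.226 in the DDKK background.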

Other observations

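Of 5 genes whose product serves both compartments (ALA1, VAS1, HTS1, GRS1 and CRS1), TE in Degron cells fell for ALA1 and was not past the threshold for 4, with a median of −0.04, the same as that of all genes to 2 decimals, where 33.1% of all genes fell and 26.8% rose. In DDKK cells none was called (2.88% of all genes fell and 1.14% rose), with a median of 0.08 against −0.08 over all genes. GRS2, the second glycyl synthetase gene, changed in TE by −0.08 in Degron cells, and its footprints rose by 0.61 in DDKK cells. Of 11 cytosolic elongation factor genes TE fell for 7 and rose for 1 in Degron cells (33.1% and 26.8% of all genes), with a median of −0.25, and none was called in DDKK cells. Of these 11, 4 belong to pairs of genes with nearly identical sequence, so their counts are uncertain. ANB1, another of the 11, had 83 and 166 mRNA reads but 5623 and 5179 footprint reads in the Degron WT cultures. Whether its footprints were shared with another gene was not tested.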
